A study of Mus musculus with 8 samples.

Results

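Small leucine-rich proteoglycans are secreted matrix proteins built on a curved stack of leucine-rich repeats, and several carry chondroitin, dermatan or keratan sulfate chains. They bind to the surface of collagen fibrils and set fibril diameter and spacing, and some of them also hold growth factors such as TGF-beta or act on cell-surface receptors. In the heart, fibroblasts are a main source of these proteins. The 9 genes described here are Fmod, Dcn, Bgn, Lum, Ogn, Prelp, Aspn, Omd and Podn, found by symbol among 54532 genes in the count and FPKM tables. Fmod was selected on its CPM, which was higher with the TSP-4 plasmid in all 4 letters, and the other genes were chosen by family, so the difference of Fmod between plasmids is given as a description without a test. All 9 symbols were found once each, and 8 of the 9 passed the filter on low counts, Omd being the exception.

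The samples were mouse cardiac fibroblasts of strain C57BL/6 at passage 2. In the first group (n = 4 libraries) they had received pAAV.CMV.SV40.THBS4-HA.SV40(polyA), a plasmid for HA-tagged murine thrombospondin-4 (TSP-4) with a CMV promoter in its name. In the control group (n = 4 libraries) they had received the empty plasmid pAAV-CA. Both groups were then kept in standard medium for 12 h and without serum for 24 h before collection. The 2 plasmids are different constructs, so a difference between groups belongs to the plasmid as a whole. The labels do not give the age or number of the animals, nor say whether libraries came from separate cultures, and p-values therefore cover only library-to-library spread, which may be technical.

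Each group holds libraries A, B, C and D, with 17123735 to 22530947 counts in all. The labels do not say what a letter marks. Thbs4 had 25754 to 38063 counts in the TSP-4 plasmid libraries and 2 to 11 counts in the empty plasmid libraries, in accord with the group labels. Of the 14 fibroblast markers, 13 passed the filter, and their summed level was 14348 to 19295 CPM (read counts scaled by library total with TMM factors) with the TSP-4 plasmid and 13975 to 19389 CPM with the empty plasmid. All 12 macrophage markers were detected too, with sums of 318 to 1812 CPM in the TSP-4 plasmid group and 349 to 1463 CPM in the empty plasmid group. Cardiomyocyte markers summed to 13.5 to 18.05 CPM in TSP-4 plasmid libraries, against 12.7 to 17.1 CPM in empty plasmid libraries, most of it Tnnt2. The cardiomyocyte marker Myh6 had at most 2 counts in a library. Of the 7 tenocyte markers, which include Thbs4, 4 passed the filter. Scx was at 21.1 ± 3.75 CPM with TSP-4 and 19.3 ± 6.95 CPM with empty plasmid (SD, n = 4 each), Mkx had 27 to 47 counts and Comp 5 to 33, while Kera was at 0 in all 8 libraries and Tnmd had at most 4 counts.

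The genes lie in 3 chromosomal clusters and at 2 single sites (coordinates from the files, which match GENCODE M21 on GRCm38; all are annotated as protein-coding). On chromosome 1, Prelp (ENSMUSG00000041577, 133910304 to 133921414, minus strand) is followed by Fmod (ENSMUSG00000041559, 134037254 to 134048277, plus strand). On chromosome 10, Dcn (ENSMUSG00000019929, 97479609 to 97518143) is followed by Lum (ENSMUSG00000036446, 97565128 to 97572703), both on the plus strand. On chromosome 13, also on the plus strand, are Aspn (ENSMUSG00000021388, 49544443 to 49567565), Omd (ENSMUSG00000048368, 49582462 to 49592822) and Ogn (ENSMUSG00000021390, 49608046 to 49624501). Bgn (ENSMUSG00000031375) lies alone on chromosome X (73483602 to 73495933, plus strand), and Podn (ENSMUSG00000028600) on chromosome 4 (108014791 to 108096445, minus strand). The 3 genes on chromosome 13 lie inside Cenpp, a gene on the opposite strand at 1.26 ± 0.230 CPM in TSP-4 plasmid libraries, against 1.29 ± 0.325 CPM in empty plasmid libraries (SD, n = 4 each). Podn overlaps Scp2, on the same strand, at 81.1 ± 5.75 CPM with TSP-4 and 78.8 ± 8.53 CPM with empty plasmid (SD, n = 4 each). Whether counting used strand is not given in the sources used here, so reads in the overlaps with Cenpp cannot be told apart. Podn and Scp2 share a strand, so a strand setting would not separate their reads. Aspn, Omd and Podn, at low counts, are uncertain for these reasons.

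The 2 members higher with the TSP-4 plasmid in every letter were Fmod, chosen for that, and Prelp, by a log2 ratio of only 0.01 in letter D. Of all genes tested, 8.03% were higher in all 4 letters, and Optc, beside Prelp and below the filter, was too. Fmod and Prelp are neighbours on chromosome 1, so the 250 bases before each RefSeq start site are shown. Sequences are from RefSeq (GRCm38.p6), 5′ to 3′ in the direction of transcription. Capitals mark CAGAC, the core of SMAD-binding elements, searched on both strands, where its reverse complement reads GTCTG. The Fmod window is chr1:134037004-134037253 on the plus strand and the Prelp window is chr1:133921402-133921651 on the minus strand.
Fmod: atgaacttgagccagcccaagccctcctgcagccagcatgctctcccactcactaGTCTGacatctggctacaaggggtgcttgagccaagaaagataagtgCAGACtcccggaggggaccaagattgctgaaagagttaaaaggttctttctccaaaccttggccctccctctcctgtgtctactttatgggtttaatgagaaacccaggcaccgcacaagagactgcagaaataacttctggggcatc
Prelp: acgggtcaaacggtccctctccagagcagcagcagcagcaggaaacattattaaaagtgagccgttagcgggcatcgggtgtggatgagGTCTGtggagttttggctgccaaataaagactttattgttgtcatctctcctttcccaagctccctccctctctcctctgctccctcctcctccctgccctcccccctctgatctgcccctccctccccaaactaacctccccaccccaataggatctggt
The Fmod window holds 2 matches, which start 195 and 148 bases before the start site, and the Prelp window holds 1, which starts 161 bases before it. The motif is common: 42.2% of the 32851 promoter windows hold at least 1 match. The AP-1 site TGANTCA (in 6.75% of windows), the TEAD site GGAATG (12.6%) and the TATA box TATAA (22.8%) had no match in either window. Their GC content was 51.2% for Fmod and 55.6% for Prelp, beside a median of 52.4% over all windows. A match in these letters is a description and shows no binding.

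Per length, the level of these transcripts in cardiac fibroblasts spanned over 3 orders of magnitude. Biglycan mRNA was the most abundant in all 8 libraries, at 764 ± 134 FPKM with the TSP-4 plasmid and 721 ± 153 FPKM with the empty plasmid (SD, n = 4 each). FPKM are the authors' length- and depth-scaled values. Bgn, whose product binds collagen and can signal through Toll-like receptors, took 64.5 to 73.1% of the summed FPKM of the 9 genes and ranked between 24 and 43 among all genes. Prelp, which encodes a heparin- and collagen-binding protein of the matrix near basement membranes, was second in all 8 libraries, at 226 ± 68.7 FPKM with the TSP-4 plasmid and 191 ± 62.3 FPKM with the empty plasmid. The lowest Bgn value, 606 FPKM, lay above the highest Prelp value, 303 FPKM. The lowest Prelp value, 143 FPKM, lay above every Fmod value.

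Fmod, Dcn and Ogn formed the next tier and exchanged places. Fmod encodes fibromodulin, which binds collagen and TGF-beta, and averaged 62.0 ± 14.4 FPKM with the TSP-4 plasmid and 49.5 ± 12.0 FPKM with the empty plasmid. Dcn encodes decorin, a collagen- and TGF-beta-binding proteoglycan and a usual fibroblast marker, and averaged 51.5 ± 30.1 FPKM with the TSP-4 plasmid and 50.5 ± 32.9 FPKM with the empty plasmid. Fmod stood above Dcn in 5 of 8 libraries, and their order went with the letter, so no single order holds. With the TSP-4 and the empty plasmid, Fmod over Dcn was 2.58 and 2.21 in letter A and 1.43 and 1.26 in D. It was 0.85 and 0.70 in B, while the libraries of C were divided, at 1.06 and 0.86. Ogn, the gene of osteoglycin (mimecan), was at 28.0 ± 12.1 FPKM with the TSP-4 plasmid and 20.8 ± 5.41 FPKM with the empty plasmid, below Dcn in 6 of 8 libraries. Bgn exceeded Dcn by 10.04-fold to 28.9-fold per length, depending on the library. In letter B of the TSP-4 plasmid group the ratio was 10.3 and in letter A 28.0, and the empty plasmid libraries gave 10.04 and 28.9 for the same letters.

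The remaining 4 genes were weakly expressed. Lum, which encodes lumican, a keratan sulfate proteoglycan of collagen fibrils, was at 2.36 ± 1.85 FPKM with the TSP-4 plasmid and 2.11 ± 1.87 FPKM with the empty plasmid. Podn, the gene of podocan, was at 1.01 ± 0.398 FPKM with TSP-4 and 0.862 ± 0.268 FPKM with empty plasmid, and Aspn, the gene of asporin, a TGF-beta-binding protein without the usual sugar chains, at 0.736 ± 0.2196 FPKM with TSP-4 and 0.649 ± 0.363 FPKM with empty plasmid. Omd, which encodes osteomodulin, a protein known from bone matrix, was lowest in all 8 libraries, at 0.276 ± 0.154 FPKM with the TSP-4 plasmid and 0.170 ± 0.0666 FPKM with the empty plasmid (SD, n = 4 throughout). The ranges of Lum and Podn overlapped, as did those of Podn and Aspn and of Aspn and Omd, although Aspn was above Omd in 8 of 8 libraries. Omd rested on 4 to 18 counts per library and Aspn on 15 to 47.

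**Figure D1:**
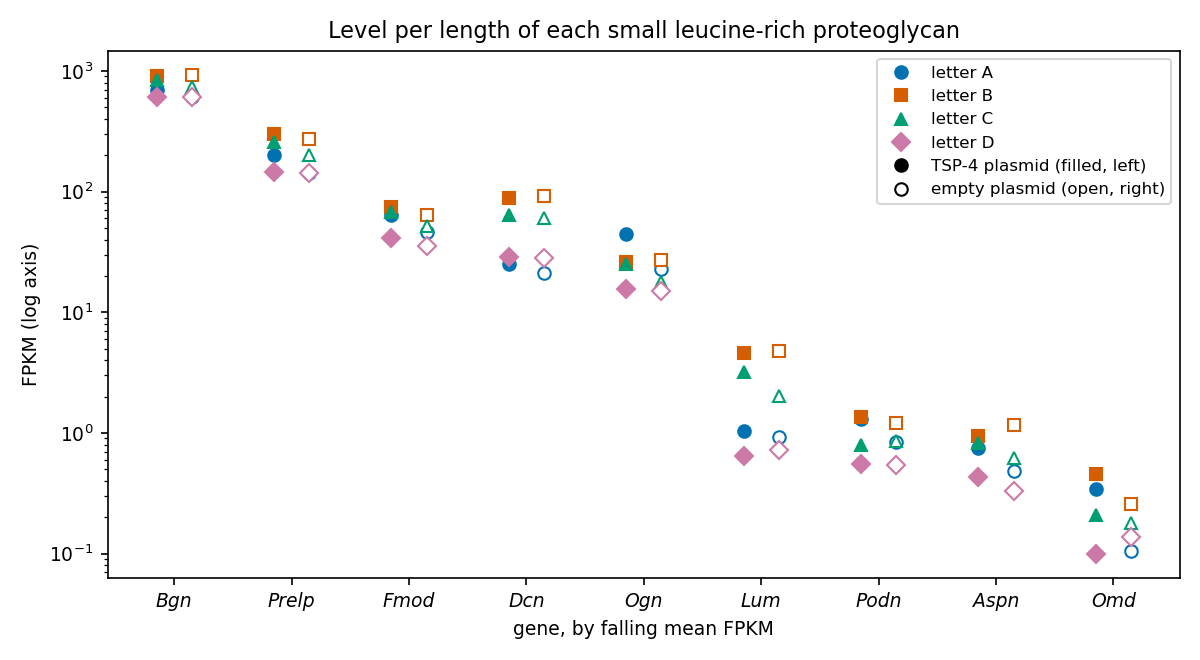
FPKM (log axis) of the 9 genes in each library, with TSP-4 plasmid libraries as filled symbols on the left and empty plasmid libraries as open symbols on the right of each gene; shapes and colours mark letters. Bgn and Prelp stand clear of the others, Fmod, Dcn and Ogn overlap, and Omd is lowest.

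The plasmids were compared to see whether TSP-4 overexpression goes with other levels of these transcripts. Fmod had 212, 247, 225 and 137 CPM in libraries A to D of the TSP-4 plasmid group, against 153, 216, 172 and 118 CPM in the empty plasmid group. Within each letter the TSP-4 plasmid library was the higher one, but the groups overlapped, with letter D low and letter B high for both plasmids. The log2 ratio within a letter was 0.47 in A, 0.20 in B, 0.39 in C and 0.22 in D, with a mean of 0.32 ± 0.13 (SD over 4 letters). The group means were 206 ± 47.8 CPM in TSP-4 plasmid libraries, against 165 ± 40.7 CPM in empty plasmid libraries (SD, n = 4 each), a ratio of 1.25. These values chose the gene. Among all 14723 genes tested, 8.03% were higher in all 4 letters. Fewer cells of a type and less RNA per cell cannot be told apart in such bulk samples.

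Leaving aside Fmod, which was given no test between plasmids, no member passed the threshold. Of the 7 tested members other than Fmod, 0 passed edgeR's quasi-likelihood test at an adjusted p of 0.05, where 0.00679% of all genes passed. That share is 1 gene, Thbs4 itself, so the absence of calls says little about the members. At an unadjusted p under 0.05 there were 0 as well, without a share over all genes to set beside it. DESeq2 and limma voom also called 0 of the 7, and 1 gene each in the whole table. With the letters as a replicate block, 0 of the 7 passed, and 0.0136% of all genes did. Leaving out letters A, B, C and D in turn with that block gave 5, 4, 2 and 1 called genes in the whole table, none of them one of the 7. The log2 fold changes of all 8 tested members, Fmod included, lay above 0, with a median of 0.21, where the median over all genes tested was -0.00 and 49.9% of genes lay above 0. The members shared their letters, so this count is not one of independent genes, and leaving out single libraries turned the sign of Dcn, Bgn, Lum and Aspn. The groups did not overlap for 0 of the 9 members, beside 1.51% of all genes tested.

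Prelp came closest to the pattern of Fmod. It had 722, 1102, 926 and 523 CPM in libraries A to D with the TSP-4 plasmid, against 515, 1001, 742 and 519 CPM with the empty plasmid. It was higher in 4 of 4 letters, although letter D differed by a log2 ratio of only 0.01, and the groups overlapped. The log2 fold change was 0.24 (95% interval -0.43 to 0.91) and the adjusted p was 0.999968 in edgeR's quasi-likelihood test. With the letters as a replicate block the interval was 0.06 to 0.42, with an unadjusted p of 0.0171 and an adjusted p of 0.509 over all genes. By that fit 1 of the 7 members other than Fmod had an unadjusted p under 0.05, beside 8.12% of all genes, and 1 gene of 7 is too few to set the members apart from that background.

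The class I genes Bgn and Dcn differed least between plasmids. Bgn had 4248, 5569, 5124 and 3748 CPM with the TSP-4 plasmid, against 3691, 5741, 4567 and 3716 CPM with the empty plasmid. Each group had its highest value in letter B, and the difference was positive in 3 of 4 letters, with a log2 fold change of 0.08 (95% interval -0.31 to 0.47; -0.01 to 0.18 with the replicate block). Dcn had 145, 516, 377 and 169 CPM with the TSP-4 plasmid, against 122, 547, 354 and 165 CPM with the empty plasmid. The pairs by letter lay close together, while letters differed several-fold. The log2 fold change of Dcn was 0.02 (95% interval -1.31 to 1.35), which without the block includes differences of over 2-fold, and the interval was -0.03 to 0.17 with it.

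Ogn differed mainly in one pair. Its values were 114, 68.0, 64.7 and 40.6 CPM with the TSP-4 plasmid, against 58.6, 71.0, 46.7 and 38.9 CPM with the empty plasmid. The log2 ratio was 0.96 in letter A and 0.47 in letter C, and it was -0.06 and 0.06 in letters B and D. The log2 fold change was 0.42 (95% interval -0.31 to 1.15, and -0.27 to 1.03 with the replicate block). Without TSP-4 plasmid library A it was 0.10. Library A also had the highest total count.

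Among the weakly expressed genes no direction held beyond the spread. Lum was higher in 2 of 4 letters, with 2.53, 11.2, 7.86 and 1.57 CPM with the TSP-4 plasmid, against 2.25, 11.8, 4.99 and 1.77 CPM with the empty plasmid (log2 fold change 0.16, 95% interval -1.64 to 1.95). Podn had 5.60, 5.88, 3.43 and 2.36 CPM with the TSP-4 plasmid, against 3.57, 5.19, 3.72 and 2.35 CPM with the empty plasmid, a log2 fold change of 0.23 (interval -0.51 to 0.97). For both genes letter A or C carried most of the difference and letter D almost none or the opposite. Aspn had 1.76, 2.22, 1.95 and 1.01 CPM with the TSP-4 plasmid, against 1.13, 2.77, 1.48 and 0.782 CPM with the empty plasmid (log2 fold change 0.19, interval -0.71 to 1.08). With the replicate block the intervals were -0.16 to 0.51 for Lum, -0.13 to 0.55 for Podn and -0.27 to 0.73 for Aspn. Omd had 17, 18, 8 and 4 counts with the TSP-4 plasmid, against 5, 10, 8 and 6 counts with the empty plasmid. Counts this small leave wide errors: in an edgeR fit without the filter its log2 fold change was 0.71 (interval -0.25 to 1.67, adjusted p 0.915).

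**Figure D2:**
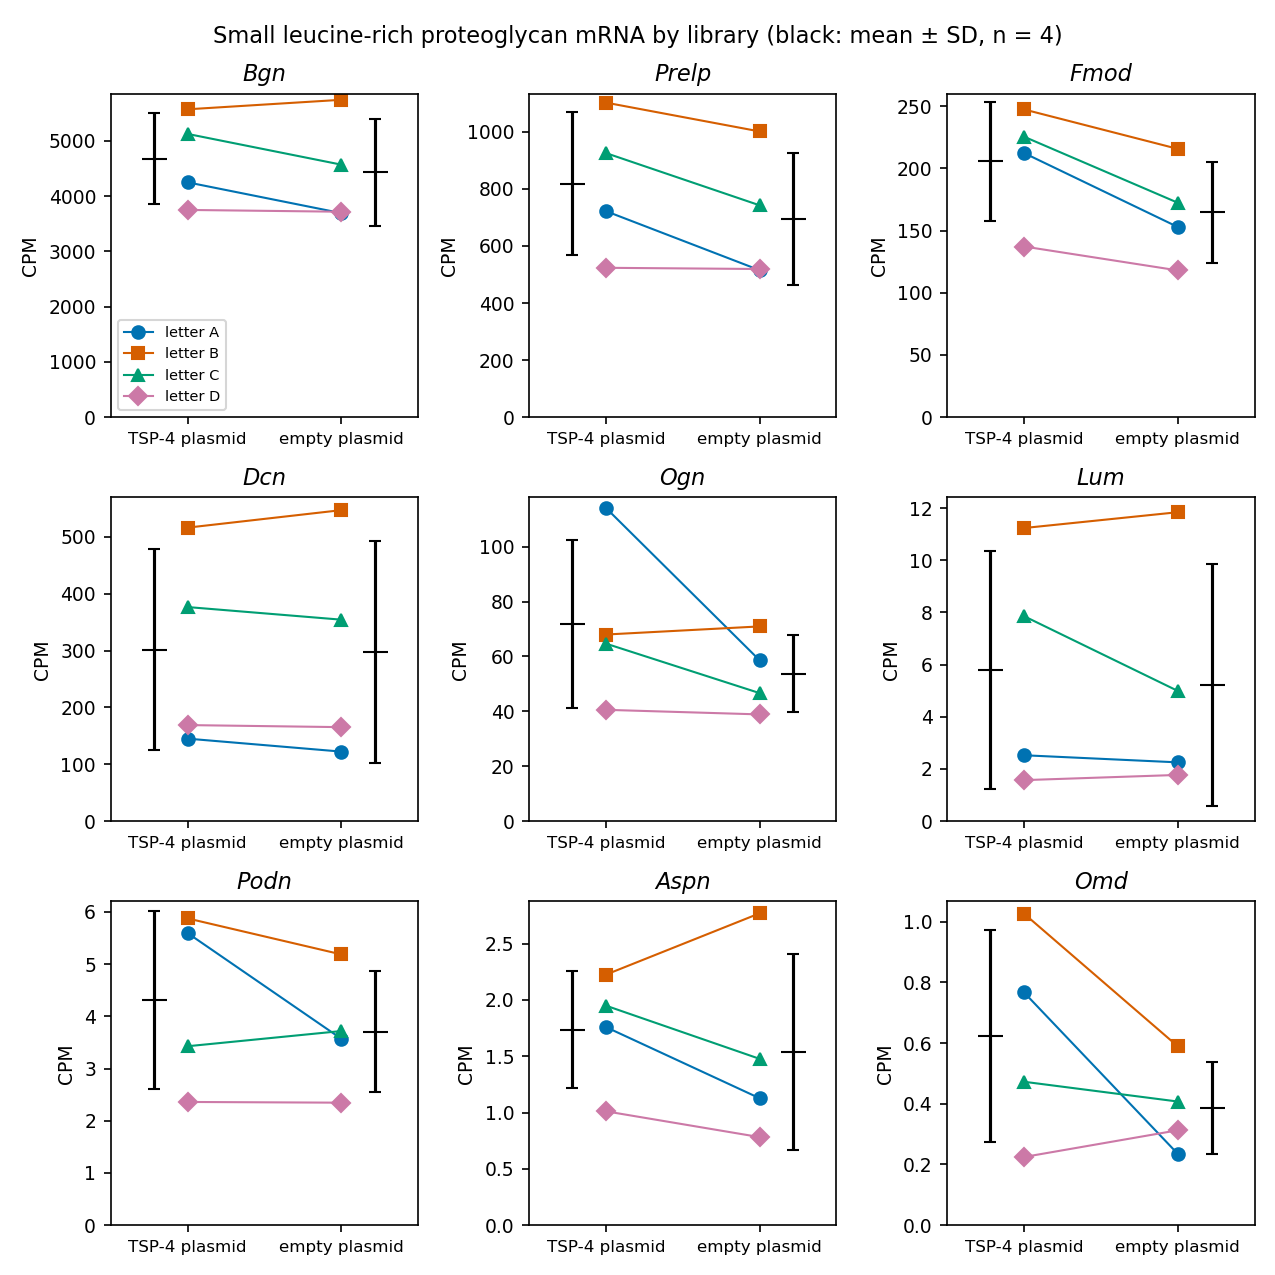
CPM of each gene in the TSP-4 plasmid libraries (left) and the empty plasmid libraries (right), with lines joining libraries of 1 letter and black marks for the mean ± SD (n = 4). The lines of Fmod all fall towards the empty plasmid, and for Dcn the letters lie far apart while the lines run nearly level.

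**Figure D3:**
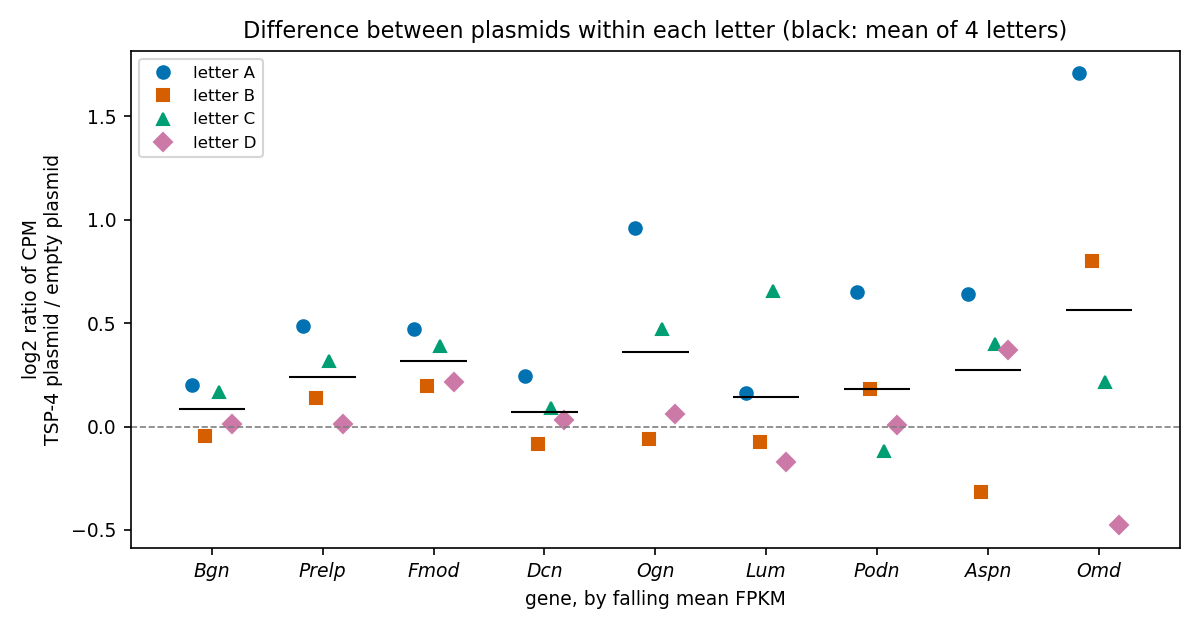
Log2 ratio of CPM, TSP-4 plasmid over empty plasmid, in each letter (symbols) with the mean of 4 letters (black lines). For Fmod all 4 ratios lie between 0.20 and 0.47, for Prelp the lowest is 0.01, and for the other 7 genes at least 1 ratio is below 0.

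Most of these genes differed between letters, while none of the 7 members tested between plasmids was called there. Fmod was given no such test. In edgeR's quasi-likelihood test over the 3 letter terms with plasmid in the model, 7 of the 8 tested members passed an adjusted p of 0.05, where 28.1% of all genes tested did; this test uses the average over both plasmids and not the difference that chose Fmod. Each letter holds 1 library per plasmid, so the spread rests on the agreement of 2 libraries per letter. The median distance between the highest and the lowest letter was 1.15 (log2) for the tested members and 0.30 for all genes. On simulated counts the share of unchanged genes among the calls of this test was above the nominal one, so adjusted p-values near the threshold deserve less weight.

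Dcn and Lum, neighbours on chromosome 10, varied most. Dcn averaged 134 CPM in letter A, 532 in B, 366 in C and 167 in D (means of 2 libraries), a span of 1.99 on the log2 scale, or 3.98-fold (adjusted p 2.3e-09). Lum averaged 2.39, 11.5, 6.43 and 1.67 CPM, a span of 2.78, or 6.86-fold (adjusted p 1.7e-06). Both were highest in B and next highest in C with either plasmid. Letter accounted for 99.3% of the sum of squares of log2 CPM of Dcn and 97.5% of that of Lum, beside a median of 68.5% over all genes tested.

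Fmod, Prelp and Bgn shared a flatter course, with B highest and D lowest. Fmod averaged 183, 232, 199 and 128 CPM in letters A to D, a span of 0.86 (log2; adjusted p 5.5e-06). Letter took 77.5% of its sum of squares and plasmid 19.9%, where the median plasmid share over all genes was 4.96%; the second share comes from the contrast that chose Fmod. Prelp averaged 619, 1052, 834 and 521 CPM (span 1.01, adjusted p 0.00186) and Bgn 3969, 5655, 4846 and 3732 CPM (span 0.60, adjusted p 1.8e-05). Bgn thus had the smallest letter span of the 8 tested members while being the most abundant. Podn (span 1.23, adjusted p 0.00631) and Aspn (span 1.48, adjusted p 0.0249) were also highest in B and lowest in D. Aspn lost its call with DESeq2 (adjusted p 0.178). It also lost it without TSP-4 plasmid library D, empty plasmid library B or D, or letter B or D. Podn lost its call without TSP-4 plasmid library D or letter D.

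Ogn did not pass the letter test. It averaged 86.4 CPM in letter A, 69.5 in B, 55.7 in C and 39.7 in D, a span of 1.08 (adjusted p 0.224). Its libraries of letter A, at 114 CPM for the TSP-4 plasmid against 58.6 CPM for the empty one, disagreed more than those of the other letters. The span passed with DESeq2 (adjusted p 0.0421) and limma voom (0.00664), without TSP-4 plasmid library A (0.0225), without empty plasmid library A (0.00505) and without letter A (0.0192). The high mean in A rests on the TSP-4 plasmid library: among the empty plasmid libraries Ogn was highest in B, at 71.0 CPM, as Aspn was.

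Other cell markers moved with the letters as well. The 12 macrophage markers summed to 318, 797, 1812 and 794 CPM in letters A to D with the TSP-4 plasmid and 349, 1072, 1463 and 659 CPM with the empty plasmid. Both sums peaked in C, whereas Dcn and Lum peaked in B. The 7 epicardial and mesothelial markers summed to 975, 539, 608 and 877 CPM in TSP-4 plasmid libraries. In empty plasmid libraries they summed to 993, 496, 583 and 844 CPM. Both sums were high where Dcn and Lum were low, but not every marker was. Lrrn4, Upk3b and Upk1b, at means of 345, 224 and 140 CPM, weigh most in these sums. By letter mean, Wt1 was highest in B and lowest in D, and Msln was at 26.9 CPM in C and 25.7 CPM in D. Fibroblast markers summed to 19295, 18967, 17319 and 14348 CPM in the TSP-4 plasmid libraries and to 17197, 19389, 15104 and 13975 CPM in the empty plasmid libraries, with D lowest as for most of the members. The part of these cell types in the letter differences was not tested. By letter mean, 8 of the 13 tested fibroblast markers were highest in B and 5 in A, and all 12 macrophage markers were highest in C. Highly expressed genes such as Col1a1 weigh most in the fibroblast sum, and many tested fibroblast markers were not lowest in D. Pdgfra, Mfap5 and Meox1 were lowest in A, Gsn, Vim and Thy1 in C, and S100a4 in B.

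**Figure D4:**
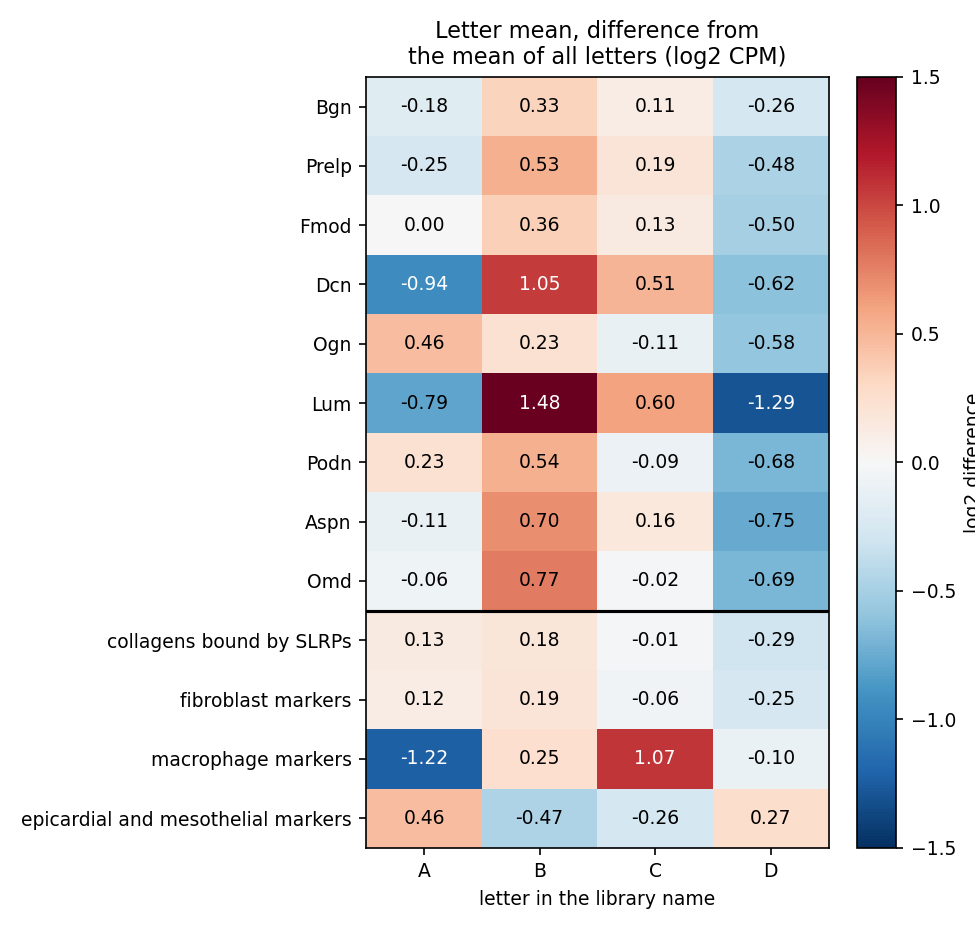
Mean log2 CPM of each letter (both plasmids) minus the mean of all letters, for the 9 genes and, below the line, for the summed CPM of 4 lists; red is above and blue below the mean. Letter B is above the mean in all 9 genes and D below it in all 9, while macrophage markers are highest in C.

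**Figure D5:**
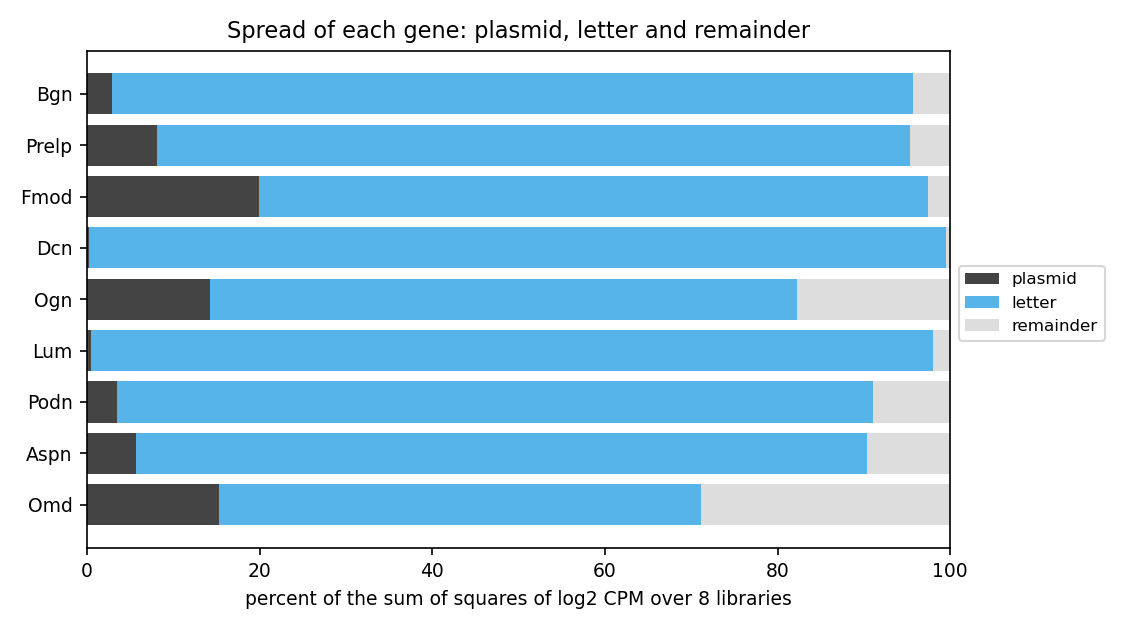
Share of the sum of squares of log2 CPM over 8 libraries that goes with plasmid, letter and the remainder, for each gene. Letter takes 55.9% (Omd) to 99.3% (Dcn). The plasmid share of Fmod, 19.9%, comes from the contrast that chose this gene, and those of Omd and Ogn are 15.3% and 14.2%.

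Likeness of pattern was measured as the root mean square difference between mean-centred log2 CPM over the 8 libraries, among 13487 other genes at 1 CPM or more. The genes most like Fmod were Adgrl2 (0.10), Narf (0.10), the collagen VI chain gene Col6a1 (0.11), Rgl1 (0.11) and Casp12 (0.11), where the median gene was at 0.39. Within the family, Prelp was nearest to Fmod (0.17) and Lum farthest (0.84). The nearest gene was Olfml3 for Dcn (0.09), Cep128 for Bgn (0.04), Serpina3i for Lum (0.27), Ehd3 for Ogn (0.10), Gpam for Prelp (0.06), Grb14 for Aspn (0.14) and Gng8 for Podn (0.13). The 8 libraries share letters and plasmids, so these figures describe the samples and carry no p.

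Of the 10 other small leucine-rich proteoglycan genes on the list, 5 passed the filter and 0 were called between plasmids, beside 0.00679% of all genes. Tsku, the gene of tsukushi, was the only abundant one, at 207 ± 33.2 CPM in TSP-4 plasmid libraries, against 219 ± 23.8 CPM in empty plasmid libraries (log2 fold change -0.08, 95% interval -0.35 to 0.19). Ecm2, the neighbour of Aspn, was at 2.77 ± 0.676 CPM with TSP-4 and 2.14 ± 0.572 CPM with empty plasmid and higher in 4 of 4 letters, as were Chadl (4.00 ± 0.836 CPM with TSP-4 and 3.65 ± 0.592 CPM with empty plasmid) and Podnl1 (1.59 ± 0.336 CPM with TSP-4 and 1.44 ± 0.298 CPM with empty plasmid). Nyx was at 0.602 ± 0.365 CPM with TSP-4 and 0.740 ± 0.239 CPM with empty plasmid (SD, n = 4 for each). None of these 5 passed the letter test either, beside 28.1% of all genes tested, and 5 genes are too few to set them apart from that share. Below the filter, Optc, which lies beside Prelp, had 5 to 19 counts per library, Epyc 1 to 12 and Chad 3 to 12. Optc was at 0.791 ± 0.219 CPM with TSP-4 and 0.359 ± 0.112 CPM with empty plasmid (SD, n = 4 each), also higher in 4 of 4 letters. Among the 5 tested genes 3 were higher in every letter, beside 8.03% of all genes tested; without TSP-4 plasmid library D the log2 fold change of Podnl1 turned to -0.01. The lincRNA Gm1627, between Prelp and Fmod, had 10 to 24 counts, and the antisense gene Gm15851, which overlaps Prelp, had 2 to 15.

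Genes that build the sugar chains gave no call between plasmids, where only 0.00679% of all genes passed. For chondroitin and dermatan sulfate, 0 of 23 tested genes passed and the median log2 fold change was -0.01. Chsy1, a chondroitin sulfate synthase, had the smallest p of the list, at 52.8 ± 3.24 CPM in TSP-4 plasmid libraries, against 60.3 ± 2.11 CPM in empty plasmid libraries (log2 fold change -0.19, lower in 4 of 4 letters, unadjusted p 0.00809 and adjusted p 0.999968 in edgeR's quasi-likelihood test). Csgalnact1, which starts chondroitin chains, was at 15.1 ± 4.10 CPM with TSP-4 and 11.7 ± 3.65 CPM with empty plasmid, and the polymerizing factor gene Chpf, the most abundant of the list, at 331 ± 34.8 CPM with TSP-4 and 334 ± 34.7 CPM with empty plasmid. For keratan sulfate and tyrosine sulfation, a modification of fibromodulin, 0 of 8 passed (median 0.11). Tpst1, a tyrosylprotein sulfotransferase gene, was at 57.5 ± 4.23 CPM in TSP-4 plasmid libraries, against 49.2 ± 4.77 CPM in empty plasmid libraries (log2 fold change 0.23), and B4galt1 at 222 ± 40.7 CPM with TSP-4 and 200.2 ± 29.0 CPM with empty plasmid (SD, n = 4 for each gene).

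The partners of these proteoglycans likewise gave no call between plasmids, beside the same 0.00679% of all genes. Among collagens, 0 of 11 tested genes passed and all 11 log2 fold changes lay above 0 (median 0.14), with Col1a1, the main chain of collagen I, at 0.08 and Col12a1 at 0.14. All 11 passed the letter test, beside the 28.1% of all genes. With single libraries left out, 8 to 11 of the 11 lay above 0, the fewest without empty plasmid library D. Col6a3 had a log2 fold change of 0.44 with an interval from -0.64 to 1.52 in the fit without the replicate block. The log2 fold change was 0.32 with the block, -0.20 without TSP-4 plasmid library C and 0.19 with limma voom. Of 18 bound growth factors and receptors 0 passed (median 0.02), with 11 log2 fold changes above 0 and 7 below. Tgfb2 was at 103 ± 37.1 CPM in TSP-4 plasmid libraries, against 79.2 ± 13.8 CPM in empty plasmid libraries. Bmp4 was at 62.5 ± 21.7 CPM with TSP-4 and 52.1 ± 12.5 CPM with empty plasmid. Without TSP-4 plasmid library A the log2 fold change went from 0.38 to 0.11 for Tgfb2 and from 0.26 to -0.001 for Bmp4. Ctgf was at 2258 ± 283 CPM with TSP-4 and 2355 ± 409 CPM with empty plasmid. The endocytic receptor gene Lrp1 was at 2493 ± 228 CPM with TSP-4 and 2444 ± 193 CPM with empty plasmid. Of 13 tested proteases 0 passed (median 0.01), with 7 log2 fold changes above 0 and 6 below. Adamts5, an aggrecanase gene, was at 478 ± 134 CPM in TSP-4 plasmid libraries, against 412 ± 65.9 CPM in empty plasmid libraries. Its log2 fold change went from 0.22 to 0.03 without TSP-4 plasmid library A. Htra1 was at 50.7 ± 4.50 CPM with TSP-4 and 45.8 ± 3.07 CPM with empty plasmid. Mmp13 was lower, at 17.5 ± 6.67 CPM with TSP-4 and 21.7 ± 2.24 CPM with empty plasmid. Of 16 large and cell-surface proteoglycans 0 passed (median 0.03), with 9 log2 fold changes above 0 and 7 below. Perlecan, Hspg2, was at 2755 ± 320.3 CPM with TSP-4 and 2664 ± 273 CPM with empty plasmid. Gpc4 was at 359 ± 101 CPM with TSP-4 and 305 ± 33.4 CPM with empty plasmid. Its log2 fold change went from 0.23 to 0.02 without TSP-4 plasmid library A. Cspg4 was lower, at 9.59 ± 2.04 CPM with TSP-4 and 11.8 ± 2.24 CPM with empty plasmid (SD, n = 4 for each gene). These medians stand beside -0.00 for all genes.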

How the data were processed

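The labels' protocols describe poly(A) selection and NEBNext Ultra kits for all 8 libraries. Tools listed, without roles, in the submitters' processing notes are HTSeq 0.6.1, Cufflinks 2.1.1, TopHat2 2.0 and CASAVA, beside builds GRCm38.p6 and mm10. Not given in the sources used here: strand setting, annotation release and treatment of multi-mapping reads. The count table, as deposited, holds whole-number read counts per gene. The FPKM table holds the authors' deposited FPKM, which equal count over length and total times 1 constant per library. All columns of per-library values were used.

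Counts were tested with edgeR 4.0.16 (quasi-likelihood, robust; TMM; filterByExpr, minimum count 10) in R 4.3.3, with Benjamini-Hochberg adjustment over 14723 genes, for plasmid (no covariate) and for letter (plasmid as covariate). CPM use TMM-scaled totals. Intervals are from the quasi-likelihood fit. For genes other than the 9 members they are without the replicate block, so they include the spread between letters. Alternatives were RLE factors, other filters, DESeq2 1.42.0, limma 3.58.1 (voom, and log2 FPKM with 0.1 added), a replicate block and left-out libraries. Both tests were checked on simulated counts. Promoter sequences are from RefSeq (GRCm38.p6), which matched 7 of the 9 genes.

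Whether letters pair the libraries was checked in the data, since no label says so, and they do: deviations from group means correlated across genes at r = 0.49 to 0.63 within a letter and -0.55 to 0.31 between letters. No 2 libraries agreed within sampling noise (mean chi-square per gene at least 4.88). Members and lists were chosen with earlier results of these data known. Named genes are all 9 members, other family genes with at least 10 counts in 1 library, in each other list those with the smallest p and highest CPM, the genes nearest in pattern, and genes within the clusters; the text prints a part.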

Additional observations from a re-analysis of the deposited data

How the results depend on the processing

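The plasmid comparison called 1 gene in edgeR, DESeq2 and limma fits without a block, under each normalization and filter. With the replicate block it called 2 genes, and 10 with DESeq2 and the replicate block. Over the fits that left out a library, or a whole letter with the block, it called 1 to 5. The letter comparison called 4134 genes as reported, 2716 with DESeq2 and 2782 to 4253 with libraries or letters left out, of which 5 to 8 were members. With libraries or letters left out, the log2 fold change ranged from -0.37 to 0.50 for Dcn, -0.02 to 0.23 for Bgn, -0.39 to 0.94 for Lum, -0.03 to 0.62 for Aspn, 0.06 to 0.47 for Prelp, 0.10 to 0.62 for Ogn, 0.04 to 0.43 for Podn and 0.19 to 0.48 for Fmod. The sign turned for Dcn and Lum without TSP-4 plasmid library B or C or empty plasmid library A or D, for Bgn without TSP-4 plasmid library B (-0.018) or empty plasmid library A, for Aspn without empty plasmid library D (-0.031), and for Lum with the block without letter C (-0.024). The cause was not tested. No other setting turned a member's sign, and the replicate block changed no member's call. The count of members higher in all 4 letters was 2 by FPKM and by CPM per length. Depth limits Omd, Aspn and the other genes with few counts.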
